A study of Mus musculus with 10 samples.

Results

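Brdt, Stra8, Dazl, Scml2, Tex101, Slc25a31 and Taf7l are mouse genes that are normally used in germ cells, and their transcripts were measured here in mouse embryonic stem cells (mESCs) that lack the histone chaperone DAXX or the histone variant H3.3. These 7 genes were chosen by name as germline regulators and spermatogenesis genes, with fold changes of these same libraries already known, and are 7 of the 20325 genes in the deposited table. Their levels and changes are therefore a description, and the calls given below place them among all genes without being independent evidence of their direction.

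PolyA RNA was sequenced from 5 mESC lines with 2 biological replicates each, all grown without feeders in 2i + LIF medium. Daxx-/- mESCs (strain 129/SvEv) lack functional DAXX, and Daxx-/-;WT are the same cells with a lentiviral transgene of FLAG-tagged murine WT DAXX. H3.3 KO mESCs (129 x C57BL/6J) lack H3.3, and FLAG-HA-tagged H3.3 was put back into them as the WT protein in the H3.3 KO;WT line and as the mutant, spelled L126A-L130A in the labels, in the H3.3 KO;L126A-L130A line. The mutant was designed to bind DAXX but not to be deposited stably in nucleosomes. The transgenes were driven by the EF1 promoter and selected with puromycin, whereas both KO lines, each a single source line, are given as genotypes with no transgene. No WT line was included, so every comparison sets a rescued line against its KO line or the 2 H3.3 transgenes against each other, and strain cannot be told apart from genotype between the Daxx and H3.3 lines.

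Germ cell genes are silenced in most other cells, and their promoters are often rich in CpG dinucleotides that take part in this silencing. Dazl encodes an RNA-binding protein needed for germ cell development, and Stra8, induced by retinoic acid, is required for entry into meiosis. DAXX is a chaperone that deposits H3.3 at heterochromatin and also acts as a corepressor. mESCs are pluripotent cells that share some transcripts with early germ cells.

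Libraries held between 15463625 and 21396585 expected counts (median 17362425), which are RSEM estimates of reads per gene. Replicates of every line differed by more than counting noise, the chi-square per gene running from 9.07 to 59.1. Levels are given as CPM, the expected counts per 1000000 counts of the library. Daxx measured 77.3 and 74.4 CPM in Daxx-/- mESCs and 195 and 208 CPM with the DAXX transgene (log2 fold change 1.41 ± 0.18 SE, adjusted p = 0.0212). In the 3 lines with the H3.3 KO genotype, whose labels name no change of Daxx, it measured 61.5 to 96.7 CPM. Daxx RNA therefore does not set Daxx-/- apart from those lines, and the transgene line was above all of them. H3f3a, which encodes H3.3, measured 390 to 498 CPM in the Daxx lines but 2.94 to 11.4 CPM in the 3 lines with the H3.3 KO genotype. H3f3b, the other H3.3 gene, went against the label: it was highest in the libraries labelled H3.3 KO, at 525 and 749 CPM, against 144 to 371 CPM in the rescued H3.3 lines and 85.1 to 388 CPM in the Daxx lines. It was also DE lower with DAXX (-1.79 ± 0.26, adjusted p = 0.0244) and with WT H3.3 (-1.84 ± 0.26, adjusted p = 0.0311). Neither H3.3 gene was higher in the rescued H3.3 lines than in H3.3 KO, so RNA of these genes does not show the H3.3 transgenes. By immunoblot, the paper reports no H3.3 protein in its H3.3 KO mESCs. Which parts of Daxx and H3f3b are deleted is not given in the sources used here, so the genotypes are used as labelled. Summed over 12 pluripotency markers, among them Pou5f1 (948 to 1299 CPM), the libraries held 6875 to 10798 CPM. The 10 markers of somatic gonad cells, which surround germ cells in the testis and ovary, summed to 3.00 to 8.85 CPM, with Lhcgr at 0 in all 10 libraries, and 17 markers of differentiated cells summed to 78.9 to 123 CPM.

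The promoters of the 7 genes are shown because the mean level of each gene was lower in the rescued lines than in their KO line. All 7 were found by symbol in the RefSeq promoter table of GRCm38.p6, whose windows of 300 bases run from 250 before the start site to 50 after it. Capitals mark matches on either strand to the E-box CACGTG, the E2F-type motif GGCGGGA or the CCAAT box, which were the letters searched. The 3 windows with an E-box and that of Dazl, which had the most CpGs, are printed from 5′ to 3′ on the strand of the gene.
Brdt: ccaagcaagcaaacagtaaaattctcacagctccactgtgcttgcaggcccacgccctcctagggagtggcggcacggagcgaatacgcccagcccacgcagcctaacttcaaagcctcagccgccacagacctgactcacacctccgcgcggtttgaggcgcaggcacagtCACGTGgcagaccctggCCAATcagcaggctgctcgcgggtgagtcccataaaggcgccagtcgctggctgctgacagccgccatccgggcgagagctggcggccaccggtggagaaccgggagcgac
Slc25a31: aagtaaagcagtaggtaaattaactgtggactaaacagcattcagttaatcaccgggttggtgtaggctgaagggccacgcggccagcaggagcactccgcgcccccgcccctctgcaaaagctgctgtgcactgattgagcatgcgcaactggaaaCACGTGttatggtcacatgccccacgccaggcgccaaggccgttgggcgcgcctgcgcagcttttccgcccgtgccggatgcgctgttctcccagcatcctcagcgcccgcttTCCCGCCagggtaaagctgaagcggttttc
Taf7l: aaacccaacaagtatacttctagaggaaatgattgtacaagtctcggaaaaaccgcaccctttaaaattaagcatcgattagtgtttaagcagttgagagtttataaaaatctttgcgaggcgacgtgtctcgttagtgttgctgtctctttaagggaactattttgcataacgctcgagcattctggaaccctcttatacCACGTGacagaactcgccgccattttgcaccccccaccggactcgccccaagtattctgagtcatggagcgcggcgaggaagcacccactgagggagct
Dazl: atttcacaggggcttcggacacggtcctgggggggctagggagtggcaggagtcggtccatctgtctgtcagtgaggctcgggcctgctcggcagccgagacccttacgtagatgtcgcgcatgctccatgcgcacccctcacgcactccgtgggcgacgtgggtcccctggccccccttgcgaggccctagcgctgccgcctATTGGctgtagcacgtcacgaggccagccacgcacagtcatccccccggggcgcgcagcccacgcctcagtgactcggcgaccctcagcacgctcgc
These windows lie at chr5:107330944-107331243 (plus strand), chr3:40708621-40708920 (plus strand), chrX:134476441-134476740 (minus strand) and chr17:50293571-50293870 (minus strand).

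Every one of the 7 windows had more CpGs than the median window, which held 7. Dazl had 28, Brdt 23, Slc25a31 22, Tex101 19, Taf7l 17, Scml2 13 and Stra8 10, and 14.2% of all 32851 windows had at least as many CpGs as Dazl, against 43.5% for Stra8. The E-box was found in 3 of the 7 windows, at 78 bases before the start in Brdt (-78 to -73), at -93 to -88 in Slc25a31 and at -49 to -44 in Taf7l, and in 7.15% of all windows. The E2F-type motif was found in 1 of the 7, Slc25a31, after its start site, and in 11.34% of all windows. The CCAAT box was found in 4 of the 7 (4 matches each in Stra8 and Tex101, 1 each in Brdt and Dazl) and in 37.41% of all windows. Scml2 had no match to any of the 3 motifs in this window. A match is a run of letters only, and windows were searched on both strands with no overlap between matches of different motifs.

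**Figure D1:**
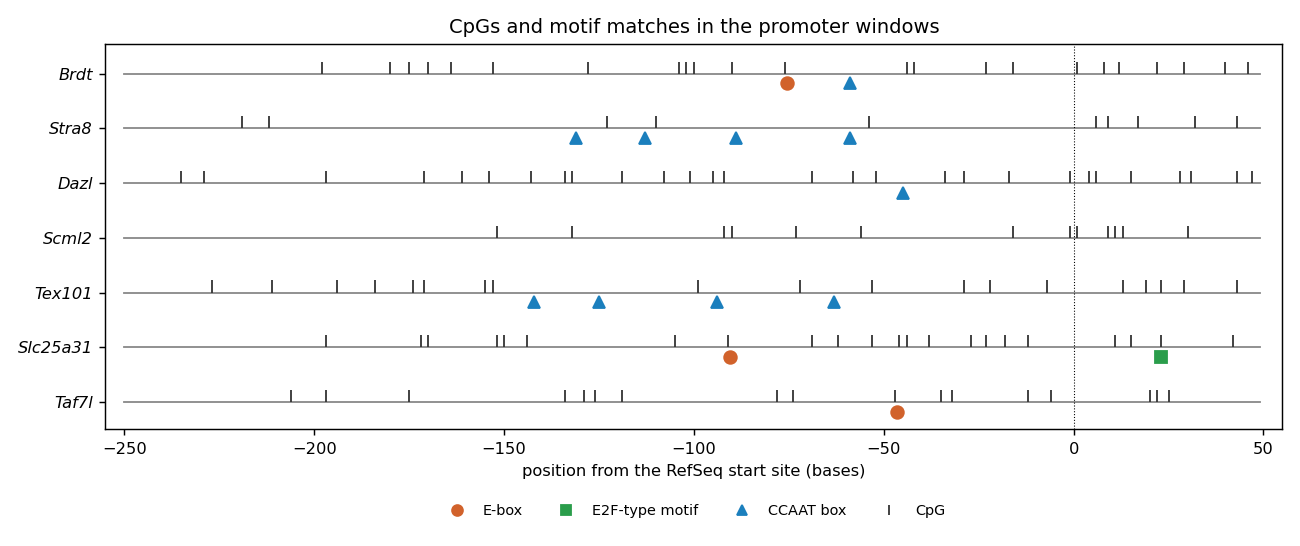
Positions of CpGs (ticks) and of motif matches (E-box circles, E2F-type square, CCAAT triangles) in the promoter windows of the 7 genes, in bases from the RefSeq start site. E-box matches lie upstream of the start in Brdt, Slc25a31 and Taf7l, and the CpG count runs from 10 in Stra8 to 28 in Dazl.

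Dazl (chromosome 17, 50279395 to 50293636 in the GENCODE annotation of GRCm38) had the highest level per kb of the 7 in any library, 66.7 CPM per kb in replicate 2 of H3.3 KO. It measured 59.7 and 79.4 CPM in Daxx-/- mESCs and 18.8 and 28.4 CPM in Daxx-/-;WT. In H3.3 KO mESCs it measured 98.3 and 255 CPM, a wide spread between replicates, and in the WT H3.3 line 36.6 and 80.5 CPM. The L126A-L130A line was lowest at 5.76 and 16.9 CPM. Both libraries of each rescued line were below both libraries of its KO line, and the mutant line was below the WT H3.3 line without overlap. The log2 fold change of Dazl was -1.56 ± 0.55 (SE, adjusted p = 0.154) in Daxx-/-;WT, -1.57 ± 0.54 (adjusted p = 0.269) in the WT H3.3 line and -3.92 ± 0.61 (adjusted p = 0.0325) in the mutant line. Of these 3 changes only the last made Dazl DE, that is, changed at least 2-fold at an adjusted p under 0.05 in the edgeR fit described below.

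Stra8 (chromosome 6, 34920163 to 34939344) had a lower mean per kb than Dazl in every line. In Daxx-/- mESCs it measured 6.51 and 7.02 CPM, against 1.36 and 4.36 CPM in Daxx-/-;WT. In H3.3 KO mESCs it measured 15.2 and 18.2 CPM, against 3.58 and 5.24 CPM with WT H3.3 and 0 and 1.14 CPM with mutant H3.3, where the 2 libraries held 0 and 20 expected counts. No rescued library of Stra8 reached the level of its KO line. The log2 fold changes were -1.27 ± 0.79 in Daxx-/-;WT, -1.89 ± 0.79 in the WT H3.3 line and -4.79 ± 0.94 in the mutant line, whose adjusted p of 0.0552 fell just outside the threshold.

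Brdt (chromosome 5, 107331159 to 107387058), a bromodomain protein of the testis that binds acetylated histones, had its lowest mean in Daxx-/-;WT. It measured 12.1 and 18.2 CPM in Daxx-/- mESCs and 0.795 and 1.75 CPM in Daxx-/-;WT. In H3.3 KO mESCs it measured 16.1 and 18.6 CPM, in the WT H3.3 line 5.85 and 5.42 CPM, and in the mutant line 1.23 and 4.03 CPM. The 2 KO lines overlapped, and the libraries of each rescued line lay below them. Brdt fell with DAXX (log2 fold change -3.58 ± 0.53, 11.9-fold lower, adjusted p = 0.0266) and with mutant H3.3 (-2.68 ± 0.50, adjusted p = 0.0482). The change with WT H3.3 was -1.59 ± 0.48 (adjusted p = 0.222). A processed pseudogene, Gm8152, overlaps Brdt on the opposite strand, and the library kit does not mark strand, so reads of the 2 cannot be told apart there.

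Scml2 (chromosome X, 161117193 to 161258213), a polycomb-type protein of male germ cells, was highest in Daxx-/- and lowest in the mutant line. It measured 107 and 152 CPM in Daxx-/- mESCs and 12.9 and 21.3 CPM in Daxx-/-;WT. In H3.3 KO mESCs it measured 36.7 and 106 CPM, in the WT H3.3 line 19.5 and 32.1 CPM, and in the mutant line 2.39 and 4.48 CPM. Scml2 and Slc25a31 were the members of the 7 with a higher mean in Daxx-/- than in H3.3 KO mESCs. Scml2 fell with DAXX (-2.92 ± 0.49, 7.56-fold lower, adjusted p = 0.0313) and with mutant H3.3 (-4.31 ± 0.55, 19.9-fold lower, adjusted p = 0.0175), and its change with WT H3.3 was -1.43 ± 0.47 (adjusted p = 0.249). The promoter window of Scml2 lies wholly inside the GENCODE gene. So do those of Stra8 (chr6:34920698-34920997) and Tex101 (chr7:24672001-24672300), so these windows are not at the outermost annotated start.

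The other 3 genes are likewise used in male germ cells. Slc25a31 (chromosome 3, 40708855 to 40726096), the ADP/ATP carrier of germ cell mitochondria, measured 12.8 and 19.7 CPM in Daxx-/-, 4.72 and 6.34 CPM in Daxx-/-;WT, 5.91 and 6.91 CPM in H3.3 KO, 3.08 and 2.83 CPM in the WT H3.3 line and 0.647 and 1.31 CPM in the mutant line. It fell with mutant H3.3 (-2.65 ± 0.38, adjusted p = 0.0229), and its change with DAXX was -1.54 ± 0.34 (adjusted p = 0.0589). Every rescued library of Slc25a31 was below both libraries of its KO line. Taf7l (chromosome X, 134460118 to 134476490), a germ cell form of a TFIID subunit, measured 3.53 and 11.4 CPM in Daxx-/-, 2.48 and 3.62 CPM in Daxx-/-;WT, 11.6 and 10.6 CPM in H3.3 KO, 3.47 and 4.88 CPM in the WT H3.3 line and 0.323 and 1.93 CPM in the mutant line. Its Daxx-/- and Daxx-/-;WT libraries overlapped, and it was not DE in any comparison (-3.24 ± 0.72 with mutant H3.3, adjusted p = 0.0707). Tex101 (chromosome 7, 24668007 to 24676675), a surface protein of germ cells, measured 0.726 and 2.83 CPM in Daxx-/-, 0.514 and 0.679 CPM in Daxx-/-;WT, 1.75 and 3.49 CPM in H3.3 KO, 0.377 and 1.75 CPM in the WT H3.3 line and 0.194 and 0.624 CPM in the mutant line. Tex101 reached 1 CPM in 4 of the 10 libraries, 3 of them in KO lines, so it passed the filter mainly through the lines where it was high. Its rescued libraries lay below those of the KO lines by narrow gaps (0.679 against 0.726 CPM, and 1.745 against 1.754 CPM), and it was not DE in Daxx-/-;WT (log2 fold change -1.53 ± 0.86), the WT H3.3 line (-1.27 ± 0.83) or the mutant line (-2.59 ± 0.90).

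**Figure D2:**
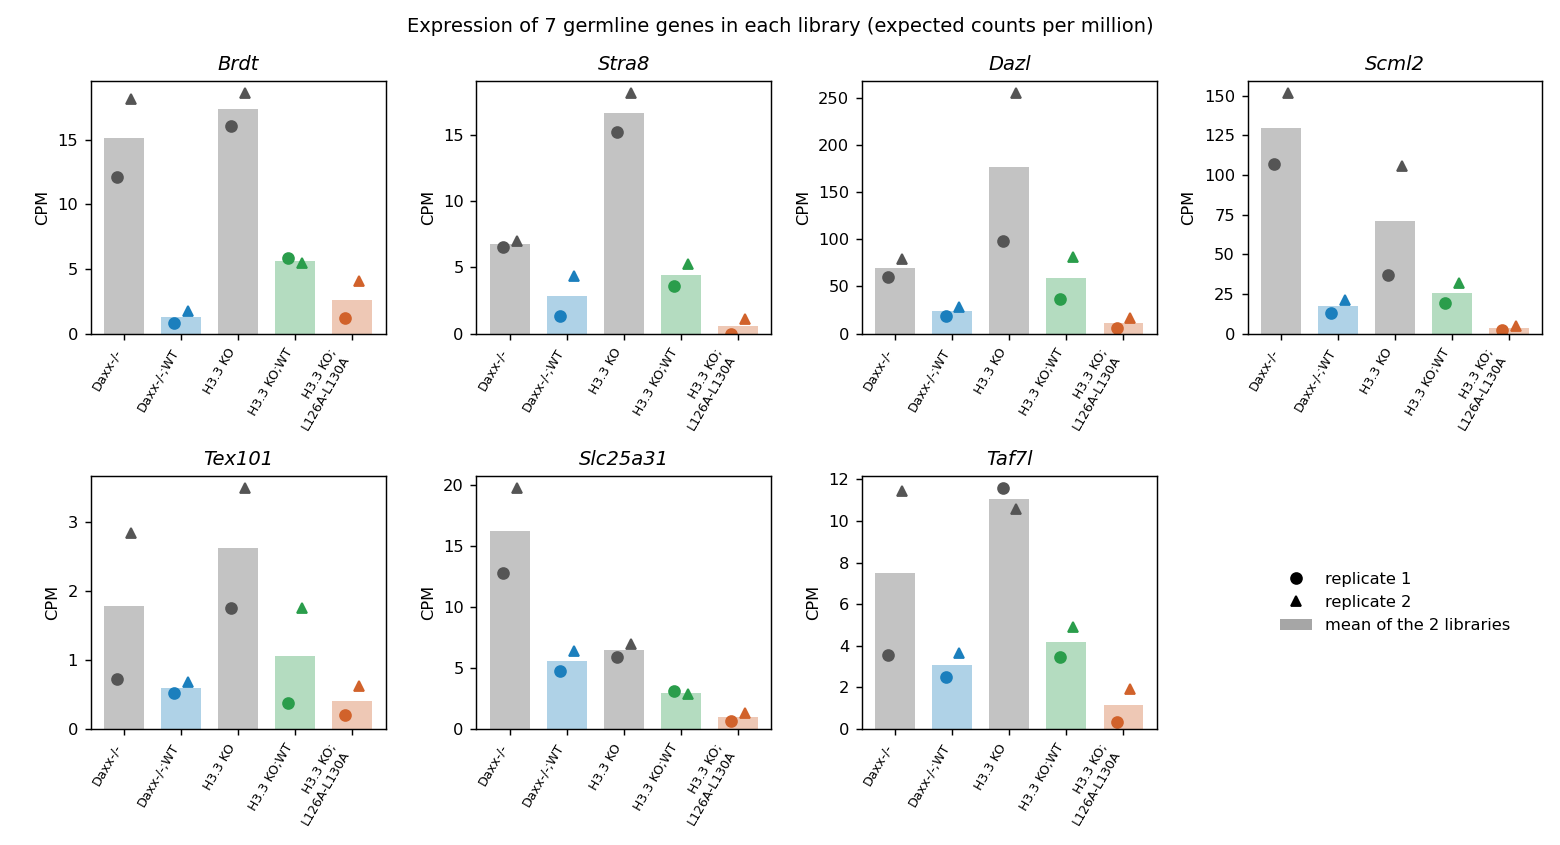
CPM (linear axes that start at 0) of the 7 genes in each library. Circles are replicate 1, triangles replicate 2 and bars the mean of the 2. In each panel the bar of a KO line is above those of its rescued lines, and Dazl in H3.3 KO spans 98.3 to 255 CPM between replicates.

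Replicate 1 was below replicate 2 in all 5 lines for Stra8, Dazl, Scml2 and Tex101, and in 4 of 5 lines for the other 3 genes. The share of all genes with such a direction was not counted, so these counts do not set the named genes apart from other genes. Ordered by mean CPM, H3.3 KO was the highest line for Brdt, Stra8, Dazl, Tex101 and Taf7l, and Daxx-/- for Scml2 and Slc25a31. The mutant H3.3 line was the lowest for every gene but Brdt, whose lowest line, Daxx-/-;WT, overlapped it. In that order, every pair of neighbouring lines overlapped for Tex101, and all but the last pair for Taf7l. One pair overlapped for Stra8 (H3.3 KO;WT and Daxx-/-;WT), Dazl (Daxx-/- and H3.3 KO;WT), Scml2 (H3.3 KO;WT and Daxx-/-;WT) and Slc25a31 (H3.3 KO and Daxx-/-;WT). Brdt overlapped in its highest pair and its lowest pair.

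Within a line the genes can be compared only per exon length, as CPM per kb, for which GRCm38 exon lengths were used. Dazl and Scml2 were the highest pair in all 5 lines. In H3.3 KO Dazl had 46.2 ± 29.0 CPM per kb (SD, n = 2) and Scml2 11.7 ± 8.0, ranges that do not overlap between libraries, and in Daxx-/- Scml2 (21.3 ± 5.2) and Dazl (18.2 ± 3.6) differed by less than their spread. Tex101 was the lowest in 4 lines and Brdt in Daxx-/-;WT, at 0.25 ± 0.13 CPM per kb, next to Tex101 at 0.36 ± 0.07.

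The change with each transgene was read from one edgeR quasi-likelihood fit of all 10 libraries over 13201 genes, with Benjamini-Hochberg adjustment over all of them. With DAXX, 2 of the 7 genes fell (Brdt and Scml2) and none rose, where 0.795% of all genes fell and 0.288% rose. The 7 log2 fold changes lay between -3.58 and -1.27 with a median of -1.54, against -0.02 over all genes, and 4 of the 7 were lower at an unadjusted p under 0.05, as were 12.4% of all genes. The libraries of 6 of the 7 (all but Taf7l) lay below both Daxx-/- libraries, as did 23% of all genes. Without replicate 2 of Daxx-/-, the changes of Taf7l and Tex101 were -0.29 and -0.36.

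With WT H3.3 no gene of the 7 passed the edgeR test, where 0.212% of all genes fell and 0.0379% rose. Their log2 fold changes lay between -1.89 and -1.08 with a median of -1.43, against 0.02 over all genes. At an unadjusted p under 0.05, 5 of the 7 were lower, as were 7.79% of all genes, and DESeq2 called 2 of the 7 lower, against 1.23% of all genes. All 7 had both WT H3.3 libraries below both H3.3 KO libraries, as did 29.7% of all genes. Without replicate 2 of H3.3 KO, the higher KO library for Dazl and Scml2, their changes were -0.73 and -0.49.

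With mutant H3.3, 4 of the 7 fell (Brdt, Dazl, Scml2 and Slc25a31) and none rose, where 0.606% of all genes fell and 0.182% rose. The log2 fold changes lay between -4.79 and -2.59 with a median of -3.24, against 0.03 over all genes, and 7 of the 7 were lower at an unadjusted p under 0.05, as were 10.3% of all genes. All 7 had both libraries below both H3.3 KO libraries, as did 27% of all genes. Mutant and WT H3.3 were compared with the same H3.3 KO libraries. Set directly against WT H3.3, mutant H3.3 gave log2 fold changes between -2.90 and -1.09, and 6 of the 7 (all but Tex101) had both mutant libraries below both WT H3.3 libraries, as did 24.2% of all genes. None of the 7 passed the edgeR test there, where 0.265% of all genes fell and 0.25% rose. There were 5 of the 7 lower at an unadjusted p under 0.05, against 6.4% of all genes, and 4 called lower by DESeq2, against 1.42% of all genes. Scml2 came nearest, at -2.88 ± 0.53 (adjusted p = 0.0629).

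**Figure D3:**
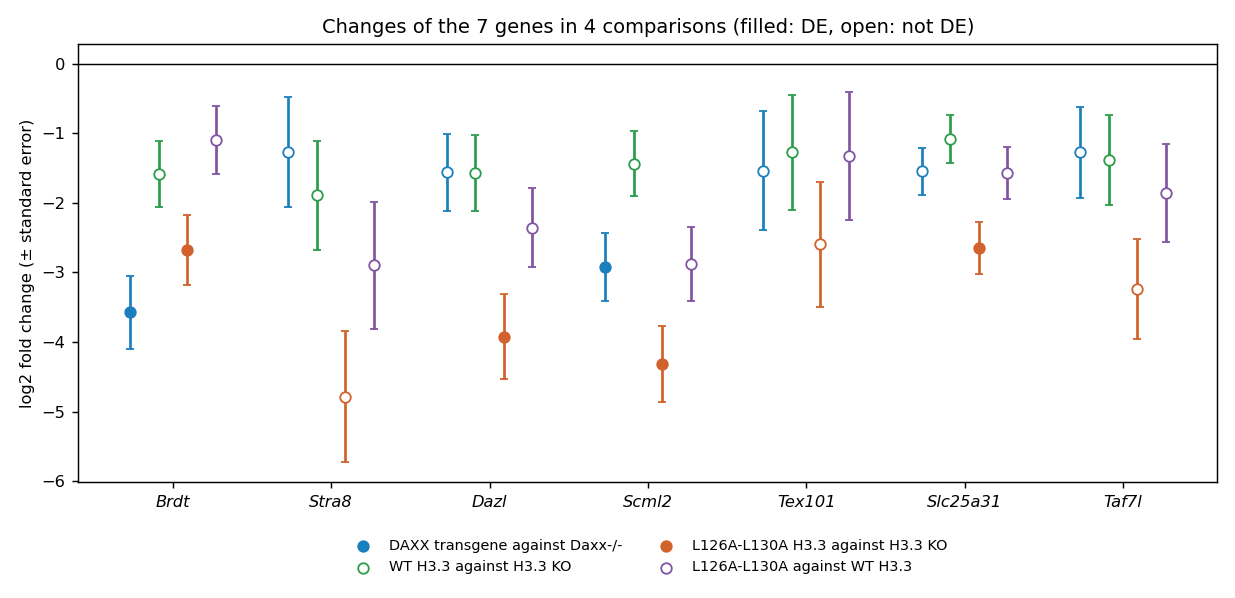
Log2 fold changes of the 7 genes with their standard errors in the 4 comparisons, filled where the gene was DE and open where it was not. All values lie below 0, and those of mutant H3.3 against H3.3 KO are the lowest for every gene except Brdt, for which DAXX gave -3.58.

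The effects of the transgenes were also set against each other. None of the 7 was called for a difference between the change with mutant H3.3 and that with DAXX, or between WT H3.3 and DAXX, by edgeR or DESeq2, and in each 2 of the 7 had an unadjusted p under 0.05, against 11.2% and 13.9% of all genes. Among all genes 0.0227% and 0.0455% were called in these tests. For Stra8 the log2 change with mutant H3.3 minus that with DAXX was -3.52 ± 1.19 (adjusted p = 0.356), and for Dazl it was -2.36 ± 0.78 (adjusted p = 0.344). For Brdt the change with WT H3.3 minus that with DAXX was 1.99 ± 0.69 (adjusted p = 0.278).

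A marker list moved with the L126A-L130A line. It holds 13 markers of two-cell-like cells, a rare state of mESC cultures with transcripts of the early embryo. Eif1a, which is broadly expressed, measured 149 to 328 CPM over the 10 libraries, and the other 12 summed to 231 and 337 CPM in H3.3 KO, 200 and 320 CPM in the WT H3.3 line, and 5.30 and 60.2 CPM in the mutant line. The list's median log2 fold change with mutant H3.3 was -3.13 against H3.3 KO and -2.92 against WT H3.3. It was 0.09 with DAXX and -0.02 with WT H3.3. In each comparison of the mutant 1 of 13 fell (Dub1, chosen after its values were seen), where 0.606% and 0.265% of all genes fell. At an unadjusted p under 0.05, 9 of 13 were lower in each, against 10.3% and 6.4% of all genes. In the Daxx lines the 12 summed to 16.5 to 89.5 CPM. None of the 13 is at 0 in every library. Whether this bears on the 7 genes was not tested, and in such bulk libraries fewer cells of a type and less RNA per cell cannot be told apart.

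**Figure D4:**
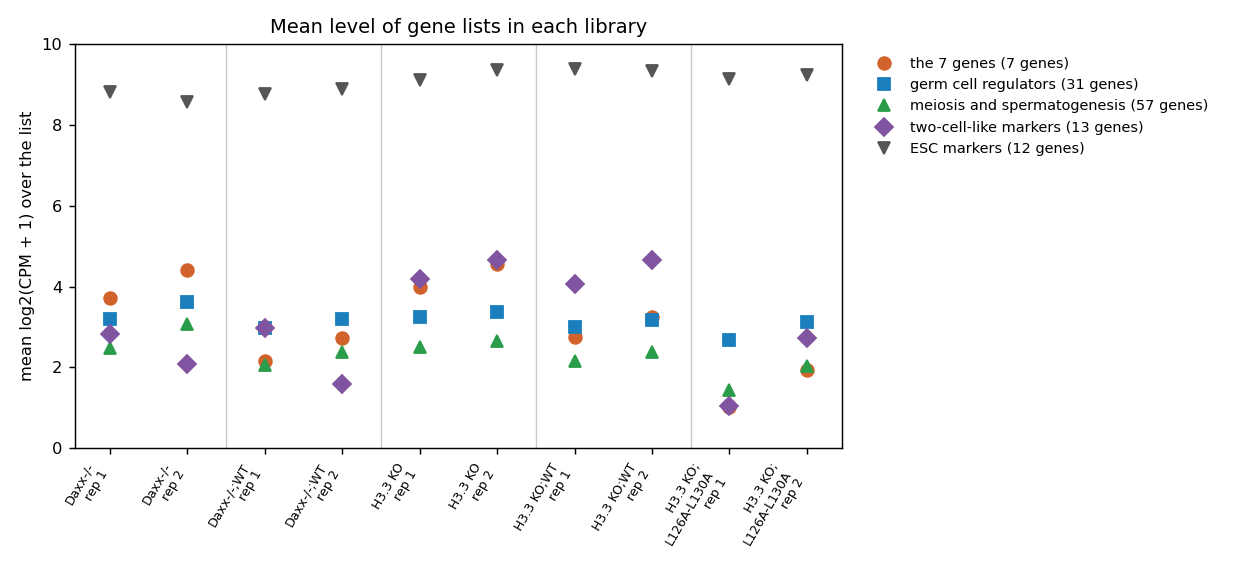
Mean log2(CPM + 1) of the 7 genes and of 4 gene lists in each of the 10 libraries, with vertical lines between the 5 lines. The 7 genes are lowest in replicate 1 of the L126A-L130A line and reach 4.57 in replicate 2 of H3.3 KO, and two-cell-like markers are also lowest in that mutant library, at 1.05.

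Other germline genes were taken from 2 lists of 88 in the table, 63 of them tested, that were also chosen with earlier results of these libraries known. With DAXX, 3 of 63 fell and 0 rose, where 0.795% of all genes fell and 0.288% rose. The 3 were the primordial germ cell gene Dppa3, the meiotic cohesin gene Smc1b and Stk31. Their CPM in Daxx-/- and Daxx-/-;WT were 57.2 and 159 against 6.40 and 11.3 for Dppa3, 50.6 and 91.9 against 5.79 and 12.1 for Smc1b, and 60.8 and 55.9 against 23.7 and 32.5 for Stk31. With mutant H3.3, 4 of 63 fell and 0 rose (Asz1, Hormad1, Smc1b and Stk31), where 0.606% of all genes fell and 0.182% rose. With WT H3.3 only Tex15 fell, at 27.7 and 23.3 CPM in H3.3 KO against 10.5 and 8.85 CPM. There 0.212% of all genes fell and 0.0379% rose. Asz1 had 0 counts in both mutant libraries against 1.17 and 2.13 CPM in H3.3 KO, at least 9.06-fold lower at a floor of 3 counts per library. At an unadjusted p under 0.05, 15, 10, 26 and 15 of the 63 were lower in the 4 comparisons, against 12.4, 7.79, 10.3 and 6.4% of all genes, and 2, 2, 3 and 3 were higher, against 9.45, 5.54, 6.64 and 5.92%. Stk31 was also lower with mutant than with WT H3.3 (-1.40 ± 0.18, adjusted p = 0.0234). It was the only 1 of the 63 that was DE there, where 0.265% of all genes fell and 0.25% rose.

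The germline lists had medians nearer 0 than the 7 genes. The 38 tested genes of meiosis and spermatogenesis had median changes of -0.71 in Daxx-/-;WT, -0.57 in the WT H3.3 line, -1.31 in the mutant line and -0.93 for mutant against WT H3.3. The 25 tested germ cell regulators had medians of -0.21, -0.18, -0.31 and -0.13. Of the 63 genes, 24, 24, 41 and 30 had both libraries below both of the reference line in these 4 comparisons, against 23, 29.7, 27 and 24.2% of all genes.

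**Figure D5:**
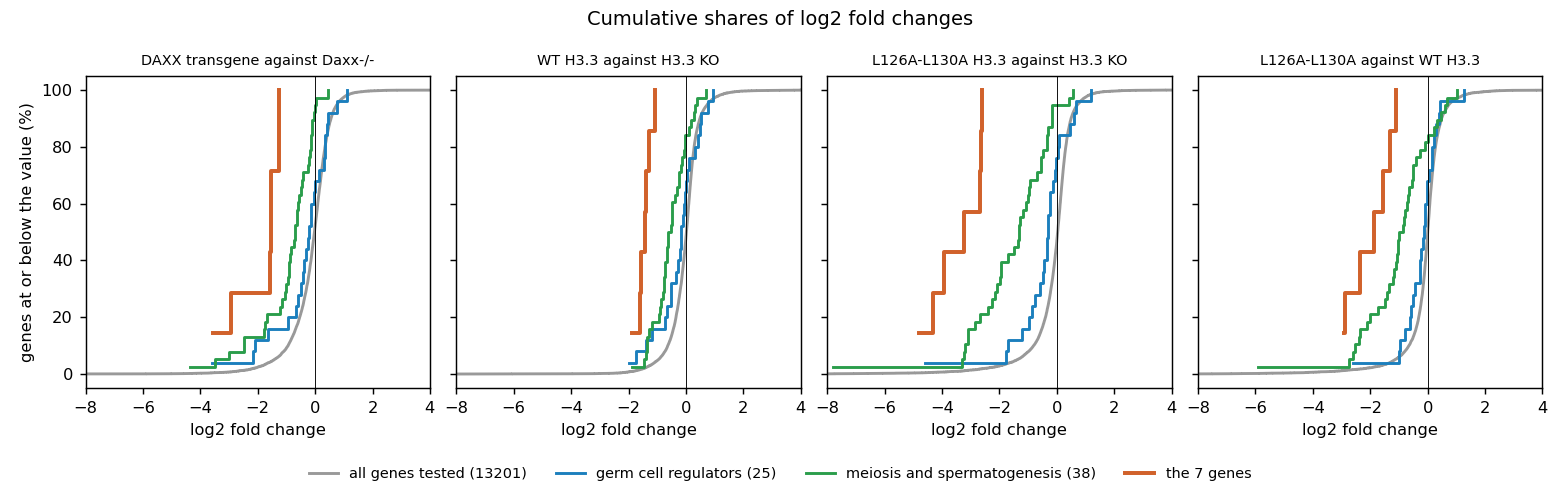
Cumulative percent of genes at or below each log2 fold change, for all genes tested, 25 germ cell regulators, 38 genes of meiosis and spermatogenesis, and the 7 genes, in the 4 comparisons. The meiosis and spermatogenesis curve lies left of all genes over most of its range, with medians from -1.31 to -0.57. The 7 genes have medians further left, from -3.24 to -1.43. In the lower tail the meiosis and spermatogenesis list reaches below the 7 genes, for example to -7.79 against -4.79 with mutant H3.3.

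Relatives of the 7 genes that are used outside the germline were also measured, at levels from that of Scml4 (0.383 to 1.59 CPM, chosen after its values were seen) upwards. Of 13 relatives, among them Brd2 (304 to 407 CPM), the polycomb gene Phc1 (286 to 576 CPM) and the ADP/ATP carriers Slc25a4 (264 to 391 CPM) and Slc25a5 (448 to 788 CPM), 0 were DE in each of the 4 comparisons by edgeR. Since under 1% of all genes fell and under 1% rose in each comparison, a count of 0 in 13 sets the relatives apart from no other genes. At an unadjusted p under 0.05, 1, 0, 1 and 0 of the 13 were lower, against 12.4, 7.79, 10.3 and 6.4% of all genes. Higher were 2, 0, 2 and 1, against 9.45, 5.54, 6.64 and 5.92%. The log2 fold changes of Brd2, the close relative of Brdt, were 0.05, 0.25, 0.04 and -0.21. Over the 13 relatives they ran from -0.83 to 0.49, -0.42 to 0.49, -0.70 to 0.84 and -0.36 to 0.61. Of 24 repressors, which include the cofactor Trim28, the DNA methyltransferase Dnmt1 and its partner Uhrf1, 0 were likewise DE in each comparison by edgeR. At an unadjusted p under 0.05, 1, 3, 1 and 0 of the 24 were lower and 2, 1, 4 and 6 higher, against the same shares of all genes. Their median log2 fold changes were 0.11, 0.06, 0.26 and 0.22. The lowest were -0.62, -0.65, -1.09 and -0.58, and the highest 1.57, 0.37, 1.64 and 1.87. For mutant against WT H3.3, Uhrf1 changed by 0.44 ± 0.11 (adjusted p = 0.147). Dnmt3b, chosen after its values were seen, changed there by 1.87 ± 0.48 (adjusted p = 0.143).

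The genes most alike to each of the 7 over the 10 libraries were found by Pearson's r of log2(CPM + 1), given as a description, since the points share libraries and 5 lines. Dazl and Stra8 were alike at r = 0.963, and Dazl was most like Prkcb (0.978) and Stra8 most like Myh3 (0.968). Scml2 was most like Dmrtc1c2 and Dmrtc1c, each at 0.994 and with the same range of levels, followed by Gm364 (0.991). Dmrtc1c2 and Dmrtc1c also had the same log2 fold change with DAXX (-2.82) and with mutant H3.3 (-5.78), so they are not 2 separate likenesses. For Brdt the gene most alike was Fyttd1 (0.970), for Tex101 Emilin3 (0.985) and for Taf7l Akap1 (0.975), followed by the germ cell gene Mael (0.970). Slc25a31 was most like Rpl26, a ribosomal protein gene, at 0.984. Among the 7, r lay between 0.582 (Slc25a31 and Tex101) and 0.963.

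The calls changed with the libraries in the fit. When each comparison was fitted on its own 4 libraries, the DAXX comparison gave 0 of the 7 as DE, the WT H3.3 comparison 3 and the mutant comparison 2. With 1 library left out at a time, Brdt kept its call with DAXX in 3 of 10 edgeR fits (adjusted p 0.0161 to 0.259), those without Daxx-/- replicate 1 or either mutant library. Scml2 kept its call with DAXX in 5 of 10 (0.0202 to 0.318) and lost it without Daxx-/- replicate 2 or any library of Daxx-/-;WT or H3.3 KO;WT. With mutant H3.3, Scml2 kept its call in 8 of 10 fits (0.00631 to 0.191), all but those without H3.3 KO replicate 2 or mutant replicate 1. Slc25a31 kept its call in 5 of 10 (0.0174 to 0.193), losing it without any library of H3.3 KO or H3.3 KO;WT or without mutant replicate 1. Dazl kept it in 4 of 10 (0.0249 to 0.224), those without either Daxx-/- library, H3.3 KO replicate 1 or mutant replicate 2, and Brdt in 3 of 10 (0.0271 to 0.268), those without either Daxx-/- library or mutant replicate 2. Stra8 and Taf7l became DE with mutant H3.3 in 3 of 10, without either Daxx-/- library or mutant replicate 2. Slc25a31 became DE with DAXX in 2 of 10, without Daxx-/- replicate 1 or mutant replicate 2. For mutant against WT H3.3, Scml2 became DE in 2 of 10, without either H3.3 KO library, and Stra8 in 1 of 10, without mutant replicate 2. The direction of each of these changes was the same in all 10 fits.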

How the data were processed

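PolyA RNA-Seq of 5 mESC lines, 2 biological replicates each, was analysed by the line named in the labels. Bowtie alignment and RSEM estimation were done by the authors, who deposited expected counts per gene. These were rounded here. The submitters' notes name build mm9, and positions here are from GRCm38, matched by symbol. The table is named TPM, but its libraries sum to different totals.

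The 13201 genes that reached 1 CPM in 2 or more libraries entered edgeR 4.0.16 (R 4.3.3) in one quasi-likelihood fit of all libraries with median-of-ratios factors. A gene was DE if it changed 2-fold or more with a p under 0.05 after Benjamini-Hochberg adjustment. As standard error served the log2 fold change divided by the square root of F. The members and gene lists were chosen with earlier results of these data known. All 7 members were described, as was each other germline gene DE in any comparison, with up to 4 examples of a further list by mean CPM. Alternatives were TMM, no filter, DESeq2 1.42.0, each comparison alone, a replicate block and leaving out each library.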

Additional observations from a re-analysis of the deposited data

How the results depend on the processing

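Of 420 alternative values of the members' log2 fold changes, 347 kept their direction and side of the threshold, 36 lost a call, 36 gained one and 1 turned: Tex101 for mutant against WT H3.3 was 0.108 without replicate 2 of H3.3 KO;WT, the highest of a leave-one-out range from -2.32. Counts with DAXX, WT H3.3, mutant H3.3 and mutant against WT H3.3 are given in that order, and the cause of each shift was not tested. All genes DE numbered 143, 33, 104 and 68, with TMM within 1.5 times of these. They were 233, 53, 203 and 125 without a filter, 531, 213, 444 and 323 by DESeq2, and 1, 350, 50 and 22 for each comparison alone. Members numbered 2, 0, 4 and 0. They were 2, 0, 6 and 1 without a filter, 3, 2, 6 and 4 by DESeq2, and 0, 3, 2 and 0 alone. Other germline genes numbered 3, 1, 4 and 1. They were 7, 1, 8 and 2 without a filter, 11, 3, 18 and 7 by DESeq2, and 0, 6, 0 and 0 alone. Without a filter the low counts of more genes enter the fit.

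With a replicate block, all genes DE were 622, 105, 461 and 234, members 4, 2, 7 and 3, and other germline genes 12, 2, 22 and 8. Replicate numbers correlated over 0.1 in 7 of 10 pairs of lines (-0.05 to 0.56, median 0.33). Among these were Daxx-/- with Daxx-/-;WT (0.56), mutant with WT H3.3 (0.41) and H3.3 KO with H3.3 KO;WT (0.28). The remaining pairs all held H3.3 KO, with Daxx-/- (-0.05), Daxx-/-;WT (-0.02) and the mutant line (0.06). Pairing was taken only where every pair was over 0.1, so the numbers were not used to pair samples in the main fit. Whether replicates of the same number share an effect was not tested.

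Leaving out each library in turn gave ranges of 1 to 1091, 2 to 61, 2 to 234 and 0 to 102 for all genes, 0 to 3, 0 to 0, 0 to 6 and 0 to 1 for members, and 0 to 10, 0 to 1, 0 to 10 and 0 to 1 for other germline genes. The lowest count of all genes came without either Daxx-/-;WT library with DAXX, without H3.3 KO replicate 2 or H3.3 KO;WT replicate 2 with WT H3.3, and without mutant replicate 1 in both comparisons of the mutant. With 2 libraries a line, depth limits Tex101 and the mutant line's Stra8 and Taf7l, which held 0 to 34 expected counts per library there. Calls also rest on low counts. Slc25a31, DE with mutant H3.3, held 10 and 23 expected counts in the mutant libraries. Brdt, DE with DAXX and with mutant H3.3, held 17 and 31 in Daxx-/-;WT and 19 and 71 in the mutant line.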
